A study of Homo sapiens with 6 samples.

Results

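Collagens are extracellular proteins built of 3 chains wound into a triple helix, and each human chain is encoded by its own COL gene. The 44 protein-coding genes whose GENCODE symbol is COL, a type number, A and a chain number were examined here, of 67060 genes in the deposited count table. They were sorted by the kind of assembly their chains form: 11 fibrillar, 6 basement membrane (type IV), 10 FACIT (chains that sit on the surface of fibrils or resemble such chains), 5 beaded filament (type VI), 3 short-chain network, 4 transmembrane, 2 multiplexin and 3 anchoring fibril and other genes. SH-SY5Y, a human neuroblastoma line that the labels call a neuronal progenitor, had been infected for 24 h with an adenovirus carrying Flag-tagged mouse Esrrg, the coding sequence of estrogen-related receptor gamma (ERRγ), or with an adenovirus carrying GFP. Both transgenes were driven by the CMV promoter, so all 6 libraries came from infected cells of 1 line, and no uninfected cells were analysed here. RNA-seq of rRNA-depleted total RNA gave 3 GFP libraries (replicates 1, 3 and 4) and 3 ERRγ libraries (replicates 2, 3 and 4), written ERRg in the plots. Nothing in the labels says that the libraries of a group came from separate cultures, so the p-values measure the spread between these libraries, which may be technical.

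Collagen chains are made as procollagens in the endoplasmic reticulum, where proline and lysine residues are hydroxylated, some hydroxylysines are glycosylated, and chaperones hold the helix until export. Outside the cell, propeptides are cut from fibrillar procollagens and the fibrils are cross-linked, and cells bind the product through integrins and discoidin domain receptors. Several types are heterotrimers of fixed chain make-up, such as α1(I) and α2(I) in type I, α1(IV) and α2(IV) in basement membranes, and α1(IX), α2(IX) and α3(IX) in type IX. Neural crest derivatives, the lineage of neuroblastoma, can make interstitial collagens, and neuroblastoma lines hold cells of neuronal and of substrate-adherent, mesenchymal character.

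ESRRG, the gene of the transgene's human counterpart, had 2357, 2796 and 2876 counts in the GFP libraries and 15228, 25994 and 26497 counts in the ERRγ libraries. The groups did not overlap, and the difference was 3.02 on the log2 scale (SE 0.14, adjusted p = 6.3e-07). Reads of the mouse coding sequence and of the endogenous human gene cannot be told apart in these counts. Counts assigned to genes summed to between 24969759 and 29700980 in the GFP libraries and between 26513620 and 40859666 in the ERRγ libraries. The share of reads that fell in no annotated gene was 51.3% to 52.2% in the GFP libraries, 46.6% in ERRγ replicate 2, 31.6% in ERRγ replicate 3 and 29.5% in ERRγ replicate 4. Reads outside genes therefore moved with the treatment and set ERRγ replicate 2 apart from the other ERRγ libraries. No 2 libraries of a group agreed within counting noise.

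The noradrenergic markers of the line were mostly present. HAND2, GATA3, PHOX2A and ISL1, transcription factors of sympathetic neuroblasts, were detected in every library, while TH was listed at 0 in all 6 libraries. Of the 10 markers on this list 9 were tested, 1 was called higher and 3 lower (adjusted p under 0.05 and at least 1.5-fold), and their summed level was 840.4 to 896 CPM (gene counts scaled to a common library size with TMM factors) in the GFP libraries and 611 to 792 CPM in the ERRγ libraries. DBH, the enzyme that makes noradrenaline, was 6.25-fold lower with ERRγ. Markers of the substrate-adherent mesenchymal state (9 of 10 tested, 2 higher and 1 lower) summed to 3753 to 4045 CPM and 3376 to 4352 CPM, led by VIM. A fibroblast list had 9 of 10 genes tested, 3 called higher and 3 lower, with POSTN listed at 0. It summed to 1009 to 1065 CPM with GFP and 629 to 714 CPM with ERRγ. On it PDGFRA (log2 -1.53), LUM (-1.15) and DCN (-0.76) were lower, and ACTA2 (1.23), TAGLN (1.12) and THY1 (0.84) higher. Of all genes tested 17.3% were called higher and 16.8% lower. Schwann cell markers (7 of 8 tested, none higher and 1 lower) summed to 80.4 to 93.9 CPM and 95.8 to 124 CPM, most of it PMP22, and SOX10, their defining factor, was near 0 at 0.910 and 0.800 CPM. These shifts in marker lists accompany every collagen difference given here, and their part in them was not tested. In bulk RNA, fewer cells of a kind and less RNA per cell cannot be told apart.

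Of the 44 collagen genes, 30 reached a mean of 10 counts over the 6 libraries, and the same 30 passed the filter on low counts and were tested. COL5A3 and COL11A2 were listed at 0 in all libraries. An exact 0 may be a failed estimate: 71.8% of the 31-base words of COL11A2 transcripts also occur in the alternate contigs of the genome assembly, against 0% for COL5A3. The other 12 (COL2A1, COL4A5, COL4A6, COL6A5, COL8A1, COL12A1, COL15A1, COL20A1, COL22A1, COL23A1, COL24A1 and COL25A1) had mean counts of 0.333 to 6.5 and at most 13 counts in a library. COL2A1, the cartilage collagen, and COL24A1, a fibrillar chain, were thus not measurable, and neither was COL4A5 or COL4A6. With 3 counts as the limit that a count of 0 allows, the floor was 0.0734 to 0.120 CPM per library before TMM scaling, which covers counting error only. Among the 30 tested genes COL13A1, COL26A1 and COL28A1 had a group with fewer than 3 libraries above the filter level, so a gene of this kind could pass mainly through the group in which it was higher.

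COL3A1, the single chain of type III fibrils, dominated in every library. Its level per length was 391, 386 and 378 CPM per kb of exon in the GFP libraries and 373, 363 and 390.3 CPM per kb in the ERRγ libraries. This was 3.60 to 7.61 times the level per length of the next collagen gene. COL3A1 took 59.3% to 59.6% of all collagen counts with GFP and 54.5% to 55.2% with ERRγ. The 5 most counted members held 83.9% to 86.9% of collagen counts in each library, and all members together 0.480% to 0.502% of gene counts with GFP and 0.376% to 0.463% with ERRγ. In the order of levels per length with GFP, COL6A2 (51.9 CPM per kb), COL1A1 (43.2), COL6A1 (39.5) and COL5A1 (27.8) followed. COL6A1 took the 2nd place in every ERRγ library, above COL6A2, COL11A1 went from the 8th to the 5th place, and COL9A2 from the 17th to the 11th or 12th place.

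**Figure D1:**
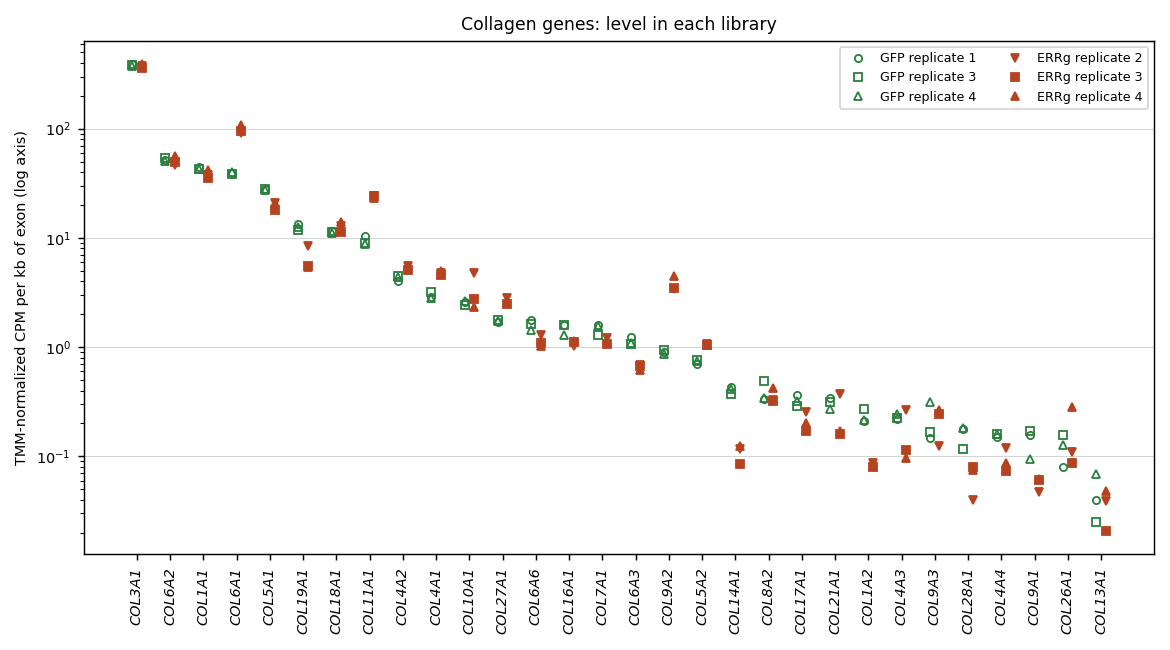
Level of each tested collagen gene in each library, as TMM-normalized CPM per kb of exon on a log axis, with genes ordered by their GFP mean. Open green symbols are GFP libraries and filled red symbols ERRγ libraries, and COL3A1 stands at 363 to 391 CPM per kb while COL13A1 lies under 0.1.

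Across classes the collagen genes moved in both directions. A gene was called changed when the Benjamini-Hochberg adjusted p of edgeR's quasi-likelihood test over 24500 genes was under 0.05 and the fold change was at least 1.5. By this rule 4 of the 30 tested members were higher with ERRγ (COL9A2, COL11A1, COL6A1 and COL4A1), which is 13.3% of them, while 17.3% of all genes tested and 25.9% of protein-coding genes were called higher. The 8 members called lower (COL14A1, COL1A2, COL9A1, COL28A1, COL19A1, COL6A3, COL4A4 and COL17A1) are 26.7% of those tested, against 16.8% of all genes and 12.4% of protein-coding genes. In 20 of the 30 members (66.7%) the libraries of the groups did not overlap, as in 58.1% of all genes tested. The median log2 fold change of the tested members was -0.24, that of all genes -0.10 and that of protein-coding genes 0.12. Higher calls made up 33.3% of the 12 calls with TMM scaling, 50% of 12 with DESeq2, 46.2% of 13 with RLE size factors, 20% of 15 when only library size was scaled, 23.1% of 13 with factors from protein-coding genes, 54.5% of 11 with a covariate for the percentage of reads outside genes and 22.2% of 18 with the replicate block and a GC content and length correction. The split of all genes called also moved with these settings. Higher calls among all genes were 4234 of 8351 with TMM scaling, 4876 of 7779 with DESeq2 and 4804 of 8263 with RLE size factors. They were 2200 of 9766 with library size only and 3380 of 8730 with factors from protein-coding genes. With the covariate they were 1773 of 3096, and with the block and the correction 4268 of 8210. Library size alone shifted the median of all genes from -0.10 to -0.42. Leaving out single libraries moved the number of calls from 12 to between 9 (without GFP replicate 4) and 16 (without ERRγ replicate 2).

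**Figure D2:**
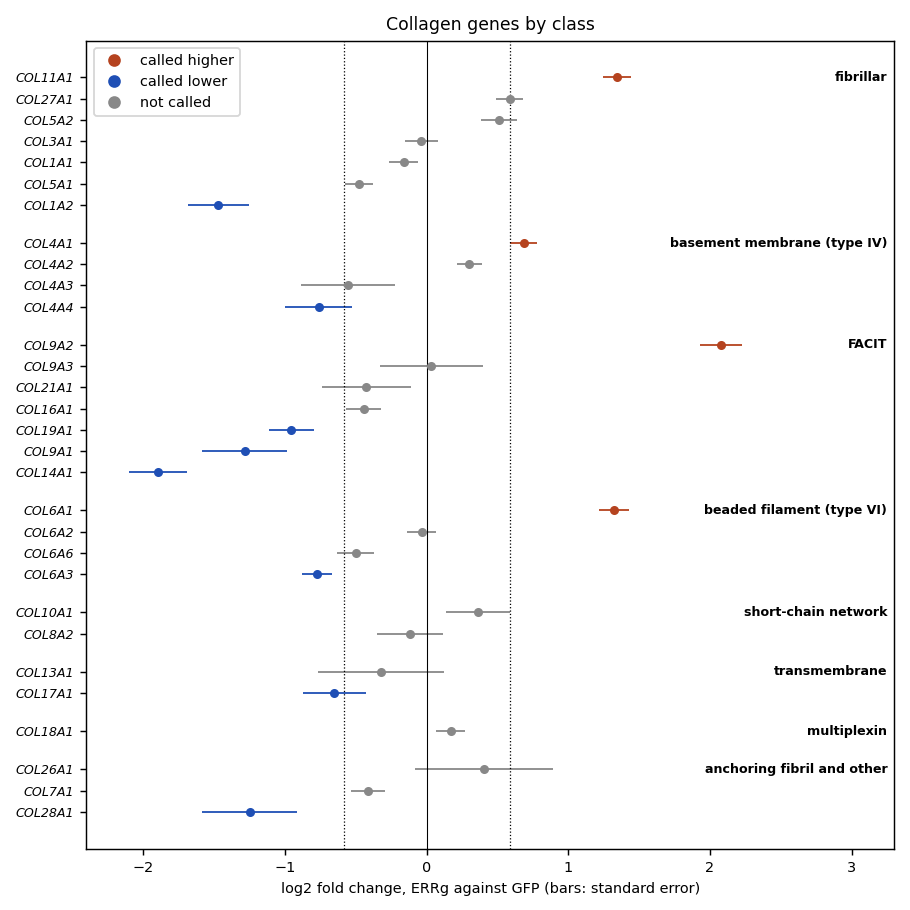
Log2 fold change of each tested collagen gene, ERRγ against GFP, by class, with bars for the standard error and dotted lines at a fold change of 1.5. Red points are the 4 genes called higher and blue points the 8 called lower, and fibrillar, type IV, FACIT and type VI collagens each hold both.

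Of the 11 fibrillar collagen genes 7 were tested, 1 was called higher and 1 lower, with a median log2 fold change of -0.04. COL11A1 (chr1:102876467-103108872, minus strand, GRCh38), the α1(XI) chain that sits in the core of cartilage-type fibrils and limits their width, had 95.0, 81.5 and 79.8 CPM in the GFP libraries and 219, 222 and 209 CPM in the ERRγ libraries. All ERRγ values lay above all GFP values, and the gene rose 2.54-fold (log2 1.34, SE 0.10, adjusted p = 1.2e-05). COL1A2 (chr7:94394895-94431227, plus strand), the α2 chain of type I collagen, had 2.27, 2.91 and 2.33 CPM with GFP and 0.935, 0.862 and 0.910 CPM with ERRγ. It fell by 1.47 on the log2 scale (SE 0.21, adjusted p = 3.7e-04), again without overlap, from 64 to 90 counts to 25 to 31 counts per library.

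The other fibrillar chains moved less. COL1A1, the α1 partner of COL1A2, had 389.5 ± 9.47 CPM (SD, n = 3) with GFP and 348 ± 30.4 CPM with ERRγ. Its log2 difference was -0.16 (adjusted p = 0.217). It was -0.53 with the GC content and length correction, and COL1A1 was called lower when the replicate block was added to it (-0.59). COL3A1 had 2602 ± 42.6 and 2536 ± 94.2 CPM, a difference of -0.04 that changed sign with other scalings. COL27A1, a fibrillar chain of cartilage, had 23.7, 25.1 and 24.2 CPM with GFP and 39.4, 34.6 and 35.6 CPM with ERRγ, and its log2 difference of 0.58 (SE 0.09, adjusted p = 6.4e-04) fell just under the fold limit. It was called without GFP replicate 3 (0.61) and without each ERRγ library in turn (0.61 to 0.64), with DESeq2 (0.67), RLE factors (0.66) and the covariate (0.74). It was 0.27 when only library size was scaled, 0.30 with the GC content and length correction and 0.15 when the replicate block was added to it. The type V chains, which start and limit type I fibrils, differed in opposite directions without reaching 1.5-fold: COL5A1 by -0.48 (adjusted p = 0.00287) and COL5A2 by 0.51 (adjusted p = 0.00719), both without overlap. Both depended on the scaling, and COL5A1 was called lower when only library size was scaled (-0.79), with factors from protein-coding genes (-0.60) and with the GC content and length correction (-0.82). COL5A2 was called higher with DESeq2 (0.60), with RLE factors (0.59) and without ERRγ replicate 2 (0.60), and was 0.19 when only library size was scaled.

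In the basement membrane class 4 of 6 genes were tested, with 1 called higher and 1 lower. COL4A1 (chr13:110148963-110307157, minus strand), the α1 chain of the ubiquitous type IV network, had 42.5, 46.8 and 41.1 CPM with GFP and 69.8, 66.7 and 73.1 CPM with ERRγ. It rose 1.61-fold (log2 0.68, SE 0.09, adjusted p = 2.6e-04), and the call was lost when only library size was scaled (log2 0.37) and with factors from protein-coding genes (0.56). COL4A2, its partner in the α1α1α2 trimer, had 78.4, 86.0 and 83.7 CPM and 106, 97.0 and 103 CPM, which did not overlap but differed by only 0.30 (adjusted p = 0.0179). COL4A4, a chain of the specialised α3α4α5 network, had 1.77, 1.91 and 1.87 CPM with GFP and 1.42, 0.862 and 1.03 CPM with ERRγ. It fell by 0.76 on the log2 scale (SE 0.24, adjusted p = 0.0223), a call lost without any of the libraries other than ERRγ replicate 2 (-0.60 to -0.79, adjusted p = 0.056 to 0.10), with DESeq2 (-0.67, adjusted p = 0.0749) and with the covariate (-0.23). COL4A3, of the same trimer, had 2.696 to 2.99 CPM with GFP, 3.29 CPM in ERRγ replicate 2, and 1.40 and 1.17 CPM in the other ERRγ libraries. Its difference was -0.56 (adjusted p = 0.192) over all libraries and -1.02 (adjusted p = 9.9e-05) without ERRγ replicate 2, and exons on the opposite strand cover 6.82% of its exon bases.

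The FACIT class held the highest and the lowest log2 fold change of the tested members. Of its 10 genes 7 were tested, 1 was called higher and 3 lower, and the class median was -0.45. COL9A2 (chr1:40300489-40317813, minus strand), the α2 chain of type IX collagen, had 3.80, 3.94 and 3.66 CPM with GFP and 14.3, 14.8 and 19.05 CPM with ERRγ, a rise of 4.22-fold (log2 2.08, SE 0.15, adjusted p = 7.4e-06). COL9A1 (chr6:70216040-70303084, minus strand), the α1 chain of the same trimer, had 1.63, 1.75 and 0.967 CPM with GFP and 0.486, 0.624 and 0.646 CPM with ERRγ. It fell by 1.28 on the log2 scale (SE 0.30, adjusted p = 0.00537) from 32 to 54 counts to 13 to 22 counts per library. COL9A3, the third chain, showed no separation at 0.709 to 1.51 and 0.599 to 1.29 CPM (log2 0.03, SE 0.36).

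COL14A1, which associates with interstitial fibrils, had 4.36, 3.78 and 4.20 CPM with GFP and 1.20, 0.862 and 1.26 CPM with ERRγ. It was 3.72-fold lower (log2 -1.89, SE 0.21, adjusted p = 8.1e-05) without overlap. COL19A1, the FACIT gene with the highest level here and a type known from basement membrane zones and from neurons, had 147, 129 and 139 CPM with GFP and 92.7, 61.4 and 60.1 CPM with ERRγ. It fell by 0.96 on the log2 scale (SE 0.16, adjusted p = 7.3e-04), with ERRγ replicate 2 between the GFP libraries and the other ERRγ libraries, in the order of their shares of reads outside genes. With that share as a covariate the difference was -0.38 and the call was lost. ERRγ replicate 2 also lay between the others for ESRRG. That gene had 83.6 to 90.4 CPM with GFP, 570 CPM in ERRγ replicate 2, and 772 and 778 CPM in replicates 3 and 4. The cause of the COL19A1 difference was not tested. COL16A1 differed by -0.45 (adjusted p = 0.0116) without overlap and was called lower when only library size was scaled (-0.77) and with the GC content and length correction (-0.83). COL21A1 differed by -0.43 (adjusted p = 0.284), with 2.58 CPM in ERRγ replicate 2 against 1.10 and 1.17 CPM in the other ERRγ libraries and a difference of -0.80 (adjusted p = 0.0037) without replicate 2.

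Type VI collagen forms beaded microfibrils around cells from α1, α2 and α3 chains. COL6A1 (chr21:45981770-46005050, plus strand) had 219, 214 and 222 CPM with GFP and 509, 532 and 600.2 CPM with ERRγ. It rose by 1.32 on the log2 scale (SE 0.11, adjusted p = 1.5e-05). COL6A2, which lies 93061 bases downstream on the same strand of chromosome 21, had 277 ± 7.12 and 270.4 ± 24.2 CPM (SD, n = 3), a difference of -0.03 (adjusted p = 0.801) whose sign changed with other scalings. COL6A3, the long α3 chain, had 26.7, 22.8 and 23.4 CPM with GFP and 14.9, 14.5 and 13.2 CPM with ERRγ and fell by 0.77 on the log2 scale (SE 0.11, adjusted p = 2.8e-04). COL6A6, an alternative to the α3 chain, differed by -0.50 (adjusted p = 0.0103) and was not called, but it was when only library size was scaled (-0.81) and with factors from protein-coding genes (-0.62), and it was -0.20 with the covariate. In the reported fit, 1 of the 3 main chains rose, 1 did not differ beyond the replicate error and 1 fell. COL6A2 was -0.52 with the GC content and length correction and was called lower when the replicate block was added to it (-0.59).

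The remaining classes had few measurable members and no gene called higher. COL17A1, a transmembrane collagen of epithelial anchoring complexes, had 2.55, 2.04 and 2.27 CPM with GFP and 1.80, 1.19 and 1.41 CPM with ERRγ, and its fall by 0.65 on the log2 scale (SE 0.22, adjusted p = 0.0322) was lost in 9 of 18 alternatives, among them without each library other than ERRγ replicate 2 (-0.51 to -0.72). COL28A1, a von Willebrand factor A domain collagen known from peripheral nerve, had 1.17, 0.776 and 1.21 CPM with GFP and 0.262, 0.535 and 0.499 CPM with ERRγ. It fell by 1.25 (SE 0.33, adjusted p = 0.0108) on 24 to 40 and 7 to 18 counts per library. The COL28A1 call was lost in 3 of 18 alternatives. These were without GFP replicate 4 (-1.13, adjusted p = 0.0502), the replicate block with the GC content and length correction (-0.83), and the test against a 1.5-fold threshold (adjusted p = 0.0755). COL10A1, a short-chain collagen of hypertrophic cartilage, had 9.90, 9.28 and 10.0 CPM with GFP but 18.4, 10.5 and 8.92 CPM with ERRγ. ERRγ replicate 2 stood alone, and the log2 difference of 0.36 (adjusted p = 0.210) was 0.10 without it.

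COL7A1, which builds anchoring fibrils, differed by -0.41 (adjusted p = 0.0161) without overlap and was not called. It was called lower when only library size was scaled (-0.73) and with the GC content and length correction (-0.80). COL18A1, the multiplexin whose C-terminal fragment is endostatin, had 96.0 ± 1.97 and 108 ± 11.6 CPM (log2 0.17, adjusted p = 0.189). Exons on the opposite strand cover 18.5% of its exon bases, and whether the counting used strand is not given in the sources used here, so reads of its antisense genes may be included. COL8A2 (-0.12, SE 0.23), COL13A1 (-0.32, SE 0.45) and COL26A1 (0.41, SE 0.49) had errors in the reported fit that leave their direction undetermined. COL8A2 was called lower with the GC content and length correction (-0.59) and when the replicate block was added to it (-0.70).

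The sums over classes follow their most counted members. Type VI counts summed to 530.1 to 537 CPM with GFP and 785 to 919.6 CPM with ERRγ, and type IV to 126 to 138 and 166 to 180.3 CPM. The FACIT sum was 156 to 175 CPM with GFP and 90.5 to 121 CPM with ERRγ, with COL19A1 as the most counted gene in each library. Fibrillar counts summed to 3356 to 3481 and 3240.4 to 3505 CPM, which overlapped. All 44 members together gave 4308 to 4449 CPM with GFP and 4440.3 to 4843 CPM with ERRγ. These totals depend on the scaling: per library size without TMM factors all members summed to 4801 to 5023 CPM with GFP and 3763 to 4633 CPM with ERRγ, the other direction. On that scale the type IV sums overlapped (142 to 153 and 141 to 182 CPM), the fibrillar sums did not (3741 to 3930 and 2746 to 3391 CPM, lower with ERRγ), and the type VI sums stayed apart (591 to 605 and 696 to 791 CPM).

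Ratios of chains that belong to 1 trimer or share 1 promoter region do not depend on how a library is scaled. They do depend on corrections that differ between genes, and no GC content and length correction was applied to them. With it the log2 fold changes were -0.53 for COL1A1 and -1.37 for COL1A2. They were -0.82 for COL5A1 and 0.47 for COL5A2, and -1.15 for COL9A1, 1.59 for COL9A2 and -0.47 for COL9A3. COL4A1 had 0.75 and COL4A2 0.30. COL6A1 had 0.85, COL6A2 -0.52 and COL6A3 -0.69. COL6A3 and COL6A2 thus lay much closer to each other than in the reported fit (-0.77 and -0.03). Of 11 pairs of such chains 8 had both chains at a mean of 10 counts. In 7 of these the ratios of counts per kb did not overlap between the groups. Among all single genes tested 58.1% did not overlap, and the share for other gene pairs was not computed. Each of the 7 reached an exact two-sided permutation p of 0.1, the smallest that 3 against 3 libraries allow. The adjusted p over the 8 pairs was 0.114 for each, so none could pass 0.05. COL6A1 went from 0.772, 0.725 and 0.788 times COL6A2 to 1.96, 1.94 and 1.95 times, a log2 shift of 1.36. COL1A1 exceeded COL1A2 by 158 to 212 times with GFP and by 439.6 to 503 times with ERRγ, a shift of 1.30. COL9A1 relative to COL9A2 fell from 0.175, 0.181 and 0.108 to 0.0139, 0.0172 and 0.0138, which is 10.1-fold lower.

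COL9A3 relative to COL9A2 fell from 0.163 to 0.360 to 0.0365 to 0.0701, a shift of -2.04. COL5A1 relative to COL5A2 went from 36.3 to 40.4 to 17.5 to 20.1, a shift of -0.99. COL6A3 relative to COL6A2 went from 0.0198 to 0.0241 to 0.0110 to 0.0147 (-0.74). COL4A1 relative to COL4A2 moved least of the separated pairs, from 0.645 to 0.716 to 0.868 to 0.930 (0.38). COL4A3 relative to COL4A4 overlapped (exact p = 0.7), with 2.23 in ERRγ replicate 2, and the shift of 0.10 was -0.16 without that library.

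**Figure D3:**
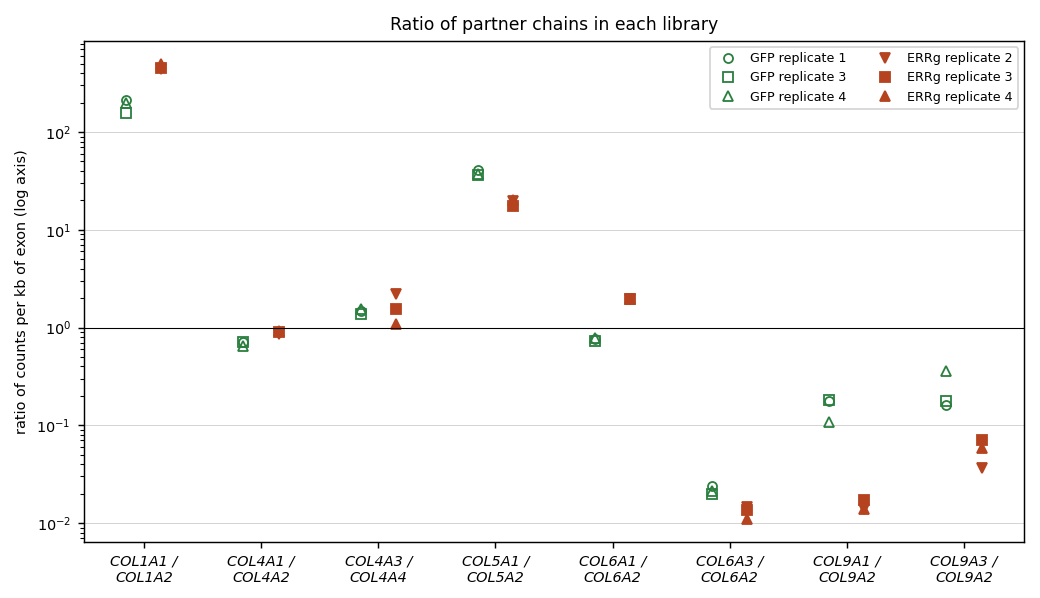
Ratio of counts per kb of exon between partner collagen chains in each library on a log axis, with GFP libraries as open green and ERRγ libraries as filled red symbols. The COL6A1 to COL6A2 ratio crosses 1 between the groups, and COL9A1 to COL9A2 is 10.1-fold lower with ERRγ, while COL4A3 to COL4A4 overlaps.

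COL4A1 and COL4A2 lie head to head on chromosome 13, and their annotated bodies overlap. COL4A4 and COL4A3 lie head to head with 170 bases between them. The other neighbouring members include COL3A1 and COL5A2 (19151 bases apart, COL5A2 on the other strand) and COL19A1 and COL9A1 (3571 bases apart, on opposite strands), and both members of the last pair fell. Of the 44 members 32 had a promoter entry in RefSeq (GRCh38.p14), defined as 250 bases before to 50 after the start. The windows of COL4A1 and COL4A2 share 226 bases, chr13:110307108-110307333. They are shown because both genes can be read from this shared stretch while 1 of them was called. COL9A2 and COL11A1 are shown as the 2 members with the largest log2 fold changes, and COL7A1 as the only window with the core of the estrogen-related receptor site. Each sequence is written 5′ to 3′ on the strand of its gene, and capitals mark the motifs searched on both strands: the TATA box (TATAAA), the CCAAT box (CCAAT), the GC box (GGGCGG), the receptor site (TNAAGGTCA) and its core (AAGGTCA), which lies within the full site. The windows are, in this order, chr13:110307108-110307407 (minus strand), chr13:110307034-110307333 (plus strand), chr1:40317237-40317536, chr1:103108473-103108772 and chr3:48595280-48595579 (minus strand for the last 3).
COL4A1: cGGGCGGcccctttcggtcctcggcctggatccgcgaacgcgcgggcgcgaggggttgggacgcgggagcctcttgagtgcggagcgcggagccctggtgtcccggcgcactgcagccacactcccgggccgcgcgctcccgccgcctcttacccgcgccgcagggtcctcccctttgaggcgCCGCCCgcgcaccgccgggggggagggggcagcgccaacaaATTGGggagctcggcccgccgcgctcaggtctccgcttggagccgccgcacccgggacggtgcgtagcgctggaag
COL4A2: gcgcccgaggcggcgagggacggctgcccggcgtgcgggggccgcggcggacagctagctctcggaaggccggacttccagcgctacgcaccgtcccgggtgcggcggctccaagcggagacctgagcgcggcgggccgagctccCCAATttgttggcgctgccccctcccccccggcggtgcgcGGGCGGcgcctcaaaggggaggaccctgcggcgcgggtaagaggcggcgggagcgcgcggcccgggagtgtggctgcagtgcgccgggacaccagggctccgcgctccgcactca
COL9A2: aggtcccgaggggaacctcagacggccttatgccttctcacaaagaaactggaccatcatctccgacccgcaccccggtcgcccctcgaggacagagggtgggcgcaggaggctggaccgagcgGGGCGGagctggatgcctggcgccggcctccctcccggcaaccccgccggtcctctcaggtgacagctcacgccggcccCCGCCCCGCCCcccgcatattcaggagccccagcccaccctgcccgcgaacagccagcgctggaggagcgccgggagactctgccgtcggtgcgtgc
COL11A1: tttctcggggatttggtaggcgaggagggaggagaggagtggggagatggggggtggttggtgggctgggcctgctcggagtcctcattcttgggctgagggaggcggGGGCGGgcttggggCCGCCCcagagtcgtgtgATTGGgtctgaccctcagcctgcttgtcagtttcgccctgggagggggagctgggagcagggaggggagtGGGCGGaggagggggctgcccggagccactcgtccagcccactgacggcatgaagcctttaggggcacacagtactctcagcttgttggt
COL7A1: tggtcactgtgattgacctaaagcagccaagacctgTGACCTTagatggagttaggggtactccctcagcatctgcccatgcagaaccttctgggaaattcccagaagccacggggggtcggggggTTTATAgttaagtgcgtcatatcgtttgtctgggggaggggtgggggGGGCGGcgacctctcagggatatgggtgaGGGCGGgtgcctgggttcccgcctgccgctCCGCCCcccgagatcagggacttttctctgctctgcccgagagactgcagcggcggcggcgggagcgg
In the COL4A1 and COL4A2 windows the same CCAAT box and GC box appear in either orientation, with the CCAAT box first base at -26 and -105 from the respective starts, and COL4A1 holds another GC box at -249. COL9A2 has 3 GC boxes and neither a TATA nor a CCAAT box, and COL11A1 has 3 GC boxes and a CCAAT box. The core in COL7A1 lies at -214 on the minus strand of the window.

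The full receptor site occurred in 0 of 32 member windows and in 0.632% of 15345 RefSeq promoter windows, and the core in 1 of 32 (3.12%) and 3.13%. The TATA box was in 5 of 32 member windows (15.6%, against 9.62% of all), the CCAAT box in 10 (31.2%, against 36.6%) and the GC box in 18 (56.2%, against 59.2%). A match describes letters only, and its absence from 300 bases says nothing about binding elsewhere. Over the 30 tested members, log2 fold change had a Spearman rho of 0.49 with GC percent and of -0.32 with exon length, given as a description. The median GC content of exons was 55.5% in members called higher, 44.8% in those called lower and 58.8% in those not called. Whether base composition had a part in the differences was not tested beyond the correction for GC content and length, under which all 4 higher calls stood and the lower calls numbered 12.

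Among genes that make, process and bind collagen, all calls in modification and in folding and export were higher. Not called were 5 of 13 tested modification genes and 13 of 20 folding and export genes. Median log2 fold changes were 0.69 for modification and 0.12 for folding and export, beside 0.12 for protein-coding genes tested. Of 69 listed genes 60 were tested, 19 were called higher (31.7%) and 5 lower (8.3%), beside 17.3% and 16.8% of all genes and 25.9% and 12.4% of protein-coding genes, with a median log2 fold change of 0.21. When only library size was scaled the split was 12 higher and 11 lower, beside 2200 higher of 9766 calls among all genes. With the covariate for reads outside genes it was 10 higher and 4 lower, beside 1773 higher of 3096 calls. PLOD2, TLL1, TNXB, LAIR1 and GP6 were listed at 0 in all libraries. Of their 31-base words 91.2% (TNXB), 87% (LAIR1) and 91.3% (GP6) also occur in alternate contigs, against 0% for PLOD2 and TLL1. Any of these zeros may be a failed estimate. The receptor gene DDR1, with 87.6% of such words and 17 counts over the 6 libraries, was not tested.

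Proline and lysine modification had 13 tested genes, of which 8 were called higher and none lower. P4HB, the β subunit of prolyl 4-hydroxylase and a disulfide isomerase, had 350.2, 392 and 371 CPM with GFP and 504, 595 and 673 CPM with ERRγ (log2 0.67, SE 0.12, adjusted p = 0.00145). CRTAP, the partner of prolyl 3-hydroxylase 1, had 232, 268 and 259 CPM and 328, 428 and 471 CPM (0.69, SE 0.14, adjusted p = 0.00219). PLOD3, a lysyl hydroxylase that also glycosylates, had 159, 183 and 169 CPM and 244, 278 and 308 CPM (0.70, SE 0.11, adjusted p = 6.6e-04). These 3 calls were lost when only library size was scaled (0.34, 0.36 and 0.37), with the covariate (0.32, 0.21 and 0.42), with the GC content and length correction (0.37, 0.57 and 0.28) and with factors from protein-coding genes (0.54, 0.56 and 0.57), for P4HB, CRTAP and PLOD3 in this order. P4HB was also lost without ERRγ replicate 4 (0.58). The prolyl 3-hydroxylase family genes P3H1, P3H2, P3H3 and P3H4 (0.94 to 1.34) and the galactosyltransferase COLGALT1 (0.77) completed the list of rises. COLGALT1 fell under the fold limit when only library size was scaled (0.44), with the covariate (0.37) and with the GC content and length correction (0.41), and P3H3 with that correction (0.45). The α subunits P4HA1 (-0.05), P4HA2 (0.44) and P4HA3 (0.35) were not called.

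In folding and export 7 of 20 tested genes were called higher and none lower. HSPA5, the general chaperone BiP, had 387, 429 and 394 CPM with GFP and 708, 911 and 892 CPM with ERRγ (log2 1.05, SE 0.13, adjusted p = 1.3e-04). SERPINH1, the collagen-specific chaperone HSP47, had 207, 231 and 231 CPM and 365, 439 and 501 CPM (0.97, SE 0.13, adjusted p = 2.2e-04). FKBP10, a prolyl isomerase of the reticulum, had 167, 176 and 167 CPM and 276, 307 and 348 CPM (0.87, SE 0.11, adjusted p = 1.6e-04). In each of the 3 the lowest ERRγ library lay above the highest GFP library. FKBP10 lost the call when only library size was scaled (0.54) and with the GC content and length correction (0.44), and SERPINH1 with the covariate (0.58). The other calls were the isomerase PPIB (1.11), CREB3L1 (1.71), a membrane-bound transcription factor known to act on collagen genes, the COPII exchange factor PREB (0.81) and TMEM38B (0.62), an ion channel of the reticulum. With the covariate PPIB, PREB and TMEM38B were under the fold limit (0.48, 0.17 and 0.32), and when only library size was scaled so were PREB (0.47) and TMEM38B (0.29), while PREB was also under it with the GC content and length correction (0.41). The export receptor gene MIA3, which encodes TANGO1, differed by -0.39 and was not called.

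Outside the cell the calls were fewer and ran both ways. PCOLCE2, an enhancer of procollagen C-proteinase, had 15.7, 18.4 and 16.9 CPM with GFP and 72.6, 88.1 and 89.5 CPM with ERRγ and rose 4.90-fold (log2 2.29, SE 0.12, adjusted p = 9.7e-07). TLL2, a proteinase of the BMP1 family, had 0.638, 0.711 and 0.695 CPM and 2.13, 1.96 and 2.08 CPM (1.59, SE 0.22, adjusted p = 2.6e-04), and these were the 2 called of 6 tested propeptide processing genes. Of 7 cross-linking genes only the transglutaminase TGM2 was called, with 309, 362 and 327 CPM and 507, 679 and 773 CPM (0.97, SE 0.15, adjusted p = 5.5e-04), and the lysyl oxidase genes LOX and LOXL1 to LOXL4 were not. The TGM2 call was lost with the covariate (0.42).

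Among 7 tested matrix partners SPARC, a collagen-binding glycoprotein, had 551, 629 and 620.1 CPM with GFP and 1353, 1649.8 and 1791 CPM with ERRγ (log2 1.41, SE 0.14, adjusted p = 4.5e-05). The small leucine-rich proteoglycans that bind fibril surfaces went the other way. LUM had 262, 245 and 238 CPM and 117, 107 and 112 CPM and was 2.22-fold lower (-1.15, SE 0.09, adjusted p = 1.9e-05). DCN had 82.3, 74.7 and 77.8 CPM and 37.0, 48.7 and 53.2 CPM (-0.76, SE 0.13, adjusted p = 8.8e-04), a call lost without ERRγ replicate 2 (-0.51) and with the GC content and length correction (-0.37). BGN, at 0.235 to 0.841 CPM, was called lower (-1.30, adjusted p = 0.0117), but only 1 of its ERRγ libraries lay above the filter level, so it passed the filter through the GFP group. Its call was lost without GFP replicate 3 or ERRγ replicate 3 (-1.16 in each), with DESeq2 (-1.21, adjusted p = 0.0537) and with the covariate (-0.59). LUM and DCN also stand on the fibroblast list above.

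Of 7 tested receptor genes none was called higher and both called genes encode α subunits of collagen-binding integrins. ITGA1 had 179.8, 169 and 154 CPM with GFP and 82.2, 73.5 and 70.7 CPM with ERRγ (log2 -1.15, SE 0.10, adjusted p = 3.0e-05). ITGA10 had 5.57, 3.85 and 4.26 CPM and 2.17, 1.69 and 1.44 CPM (-1.37, SE 0.22, adjusted p = 6.0e-04). The α subunit genes ITGA2 (-0.11) and ITGA11 (-0.33), the shared β subunit gene ITGB1 (-0.03) and the receptor tyrosine kinase gene DDR2 (0.08) were not called. MRC2, with the highest log2 fold change of the tested receptor genes (0.49), was not called either.

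**Figure D4:**
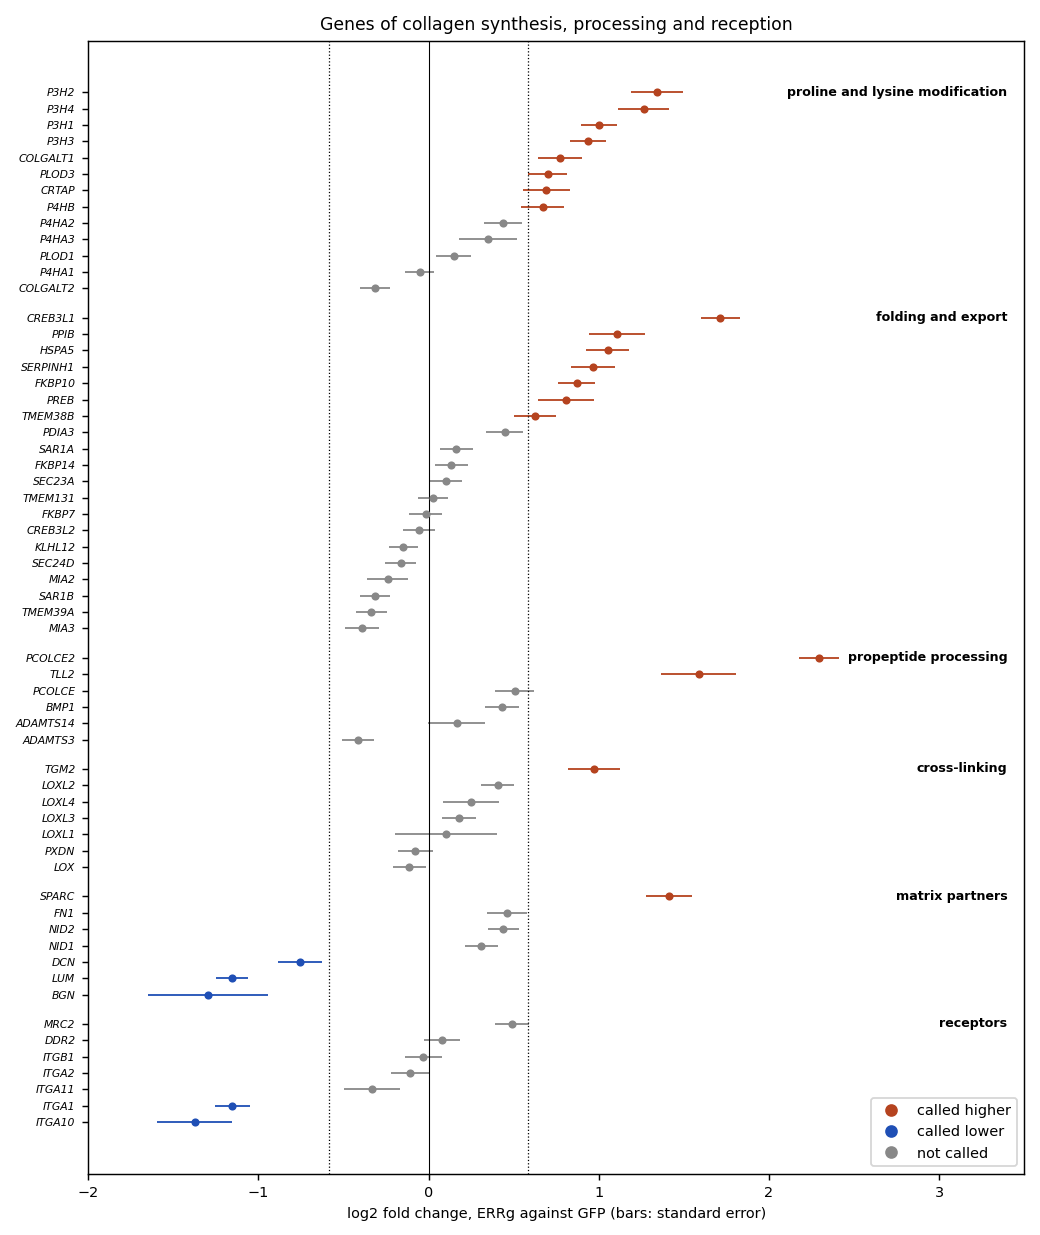
Log2 fold change, ERRγ against GFP, of the 60 tested genes of collagen synthesis, processing and reception by role, with bars for the standard error and dotted lines at a fold change of 1.5. The 15 called genes of modification and of folding and export all lie to the right of 0, and the 5 genes called lower are matrix partners and receptors.

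Of the 12 called collagen genes 6 (COL9A2, COL11A1, COL6A1, COL14A1, COL1A2 and COL9A1) were called in all 18 alternatives, which changed the scaling, filter, test, covariate, block or libraries. Their log2 fold changes ranged from 1.57 to 2.26, 1.03 to 1.503, 0.80 to 1.48, -2.22 to -1.73, -1.79 to -1.35 and -1.67 to -0.92. The other 6 lost the call at least once.

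**Figure D5:**
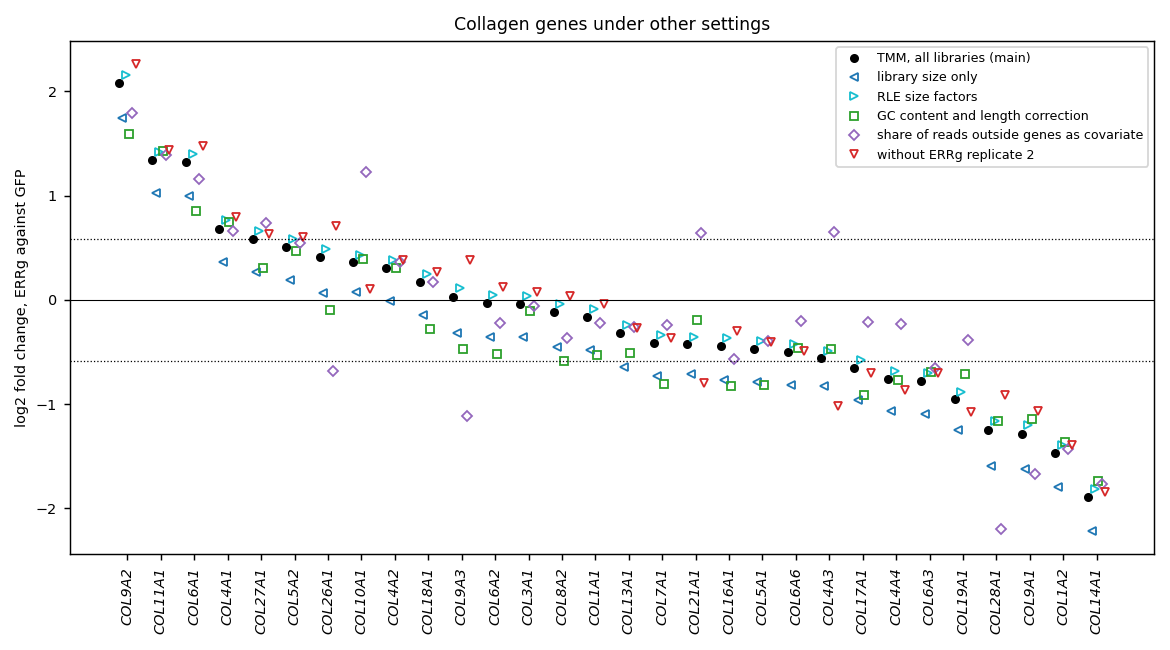
Log2 fold change of each tested collagen gene in the reported fit and in 5 alternatives, with dotted lines at a fold change of 1.5 and genes ordered by the reported value. The genes at both ends keep their side in all 6 settings shown, and the covariate moves COL10A1, COL21A1 and COL4A3 upward to 1.22, 0.64 and 0.66.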

How the data were processed

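RNA of 6 SH-SY5Y libraries, 3 per group, was compared. The authors deposited a table of raw counts per Ensembl gene, and the submitters' processing notes name Trim Galore 0.6.7, STAR 2.7.9a, HTSeq 0.11.3 and DESeq2 with the GRCh38 build, while the annotation release and the strand setting of the counting are not given in the sources used here. Reads in several genes or in none were left out of library sizes and tests, and with multiply aligned reads they made up 52.3% to 64.0% of reads.

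Symbols, exon lengths and GC content came from GENCODE 44, which matched 60419 of 67060 genes. Genes were tested with edgeR 4.0.16 (filterByExpr, TMM, quasi-likelihood) in R 4.3.3, without covariates, and 24500 passed the filter. CPM values are counts scaled to a common library size with TMM factors. A call needed an adjusted p under 0.05 and a fold of 1.5. Chain ratios used an exact permutation test. Alternatives were DESeq2 1.42.0, other scalings and filters, no fold limit, a test against the fold limit, a GC content and length correction (mgcv 1.9.3), a covariate for the percentage of reads outside genes, the replicate number as a block, and leaving out each library. Scripts were tested on simulated data.

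The members, classes and lists were chosen with earlier results of these data known. Named were ESRRG, every collagen gene that passed the filter, and, per pathway role and direction, up to 3 called genes with the highest mean count, with others where a count of 5 or fewer or a role needed them. CREB3L1, MIA3, PPIB, PREB, TMEM38B and the genes given only with a log2 fold change were named after their values were seen.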

Additional observations from a re-analysis of the deposited data

Results flagged for a closer look

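Reads that overlapped more than 1 gene, which enter no comparison, made up 5.69% of all reads in the lowest ERRγ library (replicate 2), above the 4.87% of the highest GFP library, and 9.84% and 9.79% in ERRγ replicates 3 and 4. Such reads were flagged as a signal outside the counted genes, and their part in the collagen differences was not tested.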

How the results depend on the processing

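Main counts were 12 collagen genes called (4 higher, 8 lower; median log2 fold change -0.24) and 24 pathway genes (19 higher, 5 lower). Without a fold limit, 19 collagen genes were called, 7 of them higher, and 38 pathway genes, 10 of them lower. Against a 1.5-fold threshold 7 collagen genes (3 higher, 4 lower) and 16 pathway genes (13 higher, 3 lower) passed the test. Library size as the only scaling gave a collagen median of -0.56, beside -0.42 for all genes, and 12 pathway genes higher and 11 lower. The GC content and length correction gave a collagen median of -0.49, beside -0.004 for all genes, and 14 pathway genes higher and 4 lower. The covariate gave 5 collagen genes lower and 14 pathway genes called, 10 of them higher.

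The replicate numbers are shared by 2 pairs of libraries only (numbers 3 and 4). Their deviations from the group means had correlations of 0.075 and -0.0001. The ERRγ mean includes replicate 2, which stood apart, so these correlations cannot show whether a shared number marks paired samples. With the replicate block 14 collagen genes were called (4 higher, 10 lower) and 23 pathway genes. With the block and the GC content and length correction 18 collagen genes were called, 14 of them lower. Their median over the tested members was -0.59, beside -0.013 for all genes. Leaving out each library in turn gave 9 to 16 collagen genes called, 4 to 6 higher and 5 to 10 lower, medians of -0.29 to -0.09, and 22 to 28 pathway genes, 18 to 24 higher and 4 or 5 lower. Across these fits the log2 shift of the chain ratios ranged from 1.17 to 1.38 for COL1A1/COL1A2, 0.33 to 0.41 for COL4A1/COL4A2, -0.16 to 0.35 for COL4A3/COL4A4, -1.03 to -0.93 for COL5A1/COL5A2, 1.32 to 1.38 for COL6A1/COL6A2, -0.82 to -0.61 for COL6A3/COL6A2, -3.58 to -3.21 for COL9A1/COL9A2 and -2.25 to -1.68 for COL9A3/COL9A2.

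Signs changed in 10 collagen genes, none of them called. COL3A1 became 0.056 with DESeq2, 0.042 with RLE factors and 0.076 without ERRγ replicate 2, and COL6A2 became 0.060, 0.047, 0.011 (block) and 0.13 (without ERRγ replicate 2). With library size only, COL4A2 became -0.013, COL9A3 -0.32 and COL18A1 -0.15, and with protein-coding factors COL9A3 became -0.10. With the GC content and length correction COL9A3, COL18A1 and COL26A1 became -0.47, -0.28 and -0.098, and with the block as well -0.46, -0.41 and -0.27. With the covariate COL4A3, COL9A3, COL21A1 and COL26A1 became 0.66, -1.12, 0.64 and -0.69. Leaving out single libraries turned COL9A3 (-0.16, -0.11, -0.0713 and -0.15), COL8A2 (0.076 and 0.041), COL13A1 (0.15) and COL26A1 (-0.32), with ranges of -0.16 to 0.45, -0.25 to 0.076, -0.61 to 0.15 and -0.32 to 0.73, and -0.057 to 0.076 for COL3A1. The cause was not tested. Counts of 7 to 90 per library limit COL1A2, COL4A4, COL9A1, COL17A1 and COL28A1, and 3 libraries a group limit every test.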

Other observations

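Besides the members, 4 genes named for a collagen gene but not coding for protein were tested. COL5A1-AS1, an antisense transcript inside COL5A1, had 1.03, 1.26 and 1.30 CPM in the GFP libraries and 0.673, 0.446 and 0.470 CPM in the ERRγ libraries, a log2 fold change of -1.19 (SE 0.28, edgeR adjusted p = 0.00515), and was named after its values were seen. With the covariate for reads outside genes its difference was -0.69 (adjusted p = 0.399) and the call was lost. COL4A2-AS2, COL18A1-AS1 and COL18A1-AS2 differed by -0.43, 0.07 and 0.16 and were not called.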
